A study of Mus musculus with 10 samples.

Results

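The merged list of Charme ChIRP-seq peaks held 798 regions, and 311 of them were 82 or 83 bp wide, the narrowest width in the list. These narrow peaks were chosen by width alone, as the deposited end minus the deposited start, and comprised 172 peaks of 82 bp and 139 of 83 bp. The other 487 peaks, called wider here, measured 97 to 858 bp with a median of 130 bp. Width is one property of the same peak calls that gave position and score, so the values of the peaks are a description and carry no test.

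The samples were mouse myotubes, the fused cells of cultured muscle, after 2 days of differentiation, and the RNA under study was Charme, a muscle-specific lncRNA. ChIRP-seq used an even and an odd set of DNA probes against Charme, a LacZ probe control and input chromatin, with 1 library each. RNA-seq of polyadenylated RNA comprised 2 libraries with the control GAP-scr and 2 each from cells depleted of Charme with GAP-2 or with GAP-2/3, gapmer sets that the labels name but do not otherwise describe. Gapmers are antisense oligonucleotides that recruit RNase H to cut a transcript. The peak list is merged over the pull-downs and does not say which probe set gave a peak, so no peak value has a replicate error, and peak calls in the LacZ and input libraries were not analysed here.

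ChIRP-seq fixes an RNA to the chromatin it touches, retrieves it with short complementary probes and sequences the DNA that comes along. Using 2 interleaved probe sets is a way to separate DNA held by the RNA from DNA caught by single probes. A peak caller then reports each stretch of the genome where the reads pile up above a background, with a score. Long non-coding RNAs of muscle are known to act on chromatin or as hosts and sponges of microRNAs, the latter in the case of linc-MD1, whose gene lies under a narrow peak.

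Of the 303 narrow peaks on chromosomes with start sites in the RefSeq promoter table, 1 overlapped the window from 250 bases before to 50 after a start site (GRCm38.p6, 32851 windows of 300 bases). It lay at chr8:81342621-81342703 (coordinates are 1-based and taken as GRCm38, a build inferred from the positions) with a score of 4681.53, and its centre was 9 bp from the start site of Gm51582, a predicted protein-coding gene on the minus strand. The same peak is inside the span of Inpp4b, a phosphoinositide phosphatase gene. The window, chr8:81342604-81342903, is printed because it is the only one of the 32851 that a narrow peak touched. Some genes have no window among them. It reads 5′ to 3′ on the minus strand, and the capitals mark the 83 bases of the peak, all of which are in the window.

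Gm51582 promoter window: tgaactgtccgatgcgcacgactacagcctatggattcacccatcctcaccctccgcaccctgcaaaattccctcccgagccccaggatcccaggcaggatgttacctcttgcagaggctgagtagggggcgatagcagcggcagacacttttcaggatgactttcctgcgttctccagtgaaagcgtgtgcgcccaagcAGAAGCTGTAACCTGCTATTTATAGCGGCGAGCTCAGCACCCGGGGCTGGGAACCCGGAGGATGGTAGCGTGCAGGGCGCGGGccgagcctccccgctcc

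The peak part held 17 A, 20 C, 33 G and 13 T, a GC content of 63.9% against a median of 52.7% over all windows, with 7 CpG. Motifs of muscle promoters were searched on both strands: CANNTG, the E-box bound by MyoD and myogenin, CAGCTG, its MyoD type, CTANNNNTAG, of the MEF2 kind, and CCNNNNNNGG, a loose form of the CArG box of serum response factor. The CTANNNNTAG pattern occurred 1 time in the window, inside the peak part, and 3.69% of all windows hold it. The CCNNNNNNGG pattern occurred 2 times, 1 of them in the peak part, and 73.3% of windows hold it. Neither CANNTG (in 72.3% of windows) nor CAGCTG (in 16.3%) occurred in the window, and CAGCTG is itself a case of CANNTG. These matches describe letters, not bound sites.

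MicroRNA genes near narrow peaks included a locus of myogenic RNAs. The peak at chr1:20671046-20671128 (83 bp, score 1260.99) lay in Lincmd1, the linc-MD1 gene, 7.88 kb from the hairpin of Mir206 and 11.6 kb from that of Mir133b, microRNAs made in skeletal muscle. A wider peak of 308 bp (chr1:20682696-20683003, score 1295.04) covered the Mir133b hairpin itself. The narrow peak closest to any hairpin in the table was chr3:118431622-118431703 (82 bp, score 1602.24), 2.15 kb from Mir137, a microRNA studied mostly in neurons. The mature 3p forms from RefSeq are shown because the first 2 are muscle microRNAs and the other comes from the closest hairpin. Capitals mark the seed, bases 2 to 8.

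mmu-miR-206-3p: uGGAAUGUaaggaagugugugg

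mmu-miR-133b-3p: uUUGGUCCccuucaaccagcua

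mmu-miR-137-3p: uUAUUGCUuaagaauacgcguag

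The 3 seeds differ. Other hairpins in the table within 50 kb of a narrow peak, a window chosen after the peaks were seen, were Mir6963 (4.98 kb), Mir7117 (10.3 kb), Mir5622 (11.2 kb), Mir1892 (12.8 kb), Mir6411 (15.6 kb), Mir6989 (16.8 kb), Mir7212 (20.6 kb), Mir7662 (21.6 kb), Mir7017 (21.7 kb) and Mir6387 (36.7 kb).

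The narrow peaks formed a single width class. No peak measured 84 to 96 bp, the next peak in the list was 97 bp wide, and the following widths gathered about every 25 bp, for example from 119 to 133, 146 to 158 and 173 to 183 bp. Dividing the deposited start by 25, a step read off these widths, left a remainder of 20 for 225 narrow peaks (72.3%) and of 21 for the other 86 (27.7%). Their ends were as regular: the peaks of 82 bp ran from remainder 20 to 2 (86 peaks) or from 21 to 3 (86), and all 139 peaks of 83 bp ran from 20 to 3. Every narrow peak thus began and ended at the same place of a 25-bp grid, give or take 1 base. Of the wider peaks 304 (62.4%) started at remainder 20 or 21, and none at 4 to 19.

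**Figure D1:**
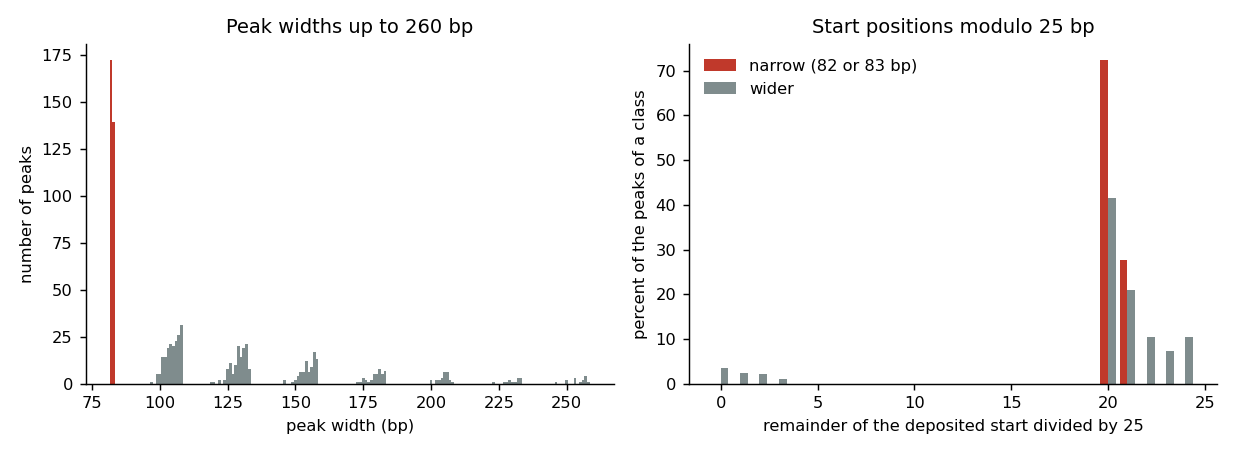
Left, the number of peaks at each width in bp up to 260 bp, with the narrow peaks in red and the wider ones in grey. Right, the percent of the peaks in each class by the remainder of the deposited start divided by 25. The narrow peaks occupy 2 adjacent widths and 2 adjacent remainders, while wider peaks also begin at remainders 22 to 24 and 0 to 3.

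Narrow peaks were found on every chromosome except Y, where no peak of any width was called. With the end of the last RefSeq gene as the length of each chromosome, their density was 0.118 per Mb outside Y and the mitochondrial genome. Chromosome 15 stood apart, with 34 narrow peaks at 0.327 per Mb, 3.00 times the 0.109 per Mb of the others. Next came chromosomes 11 (22 peaks, 0.180 per Mb) and 5 (27 peaks, 0.178 per Mb), and the lowest were 16 (5 peaks, 0.0510 per Mb) and X (9 peaks, 0.0527 per Mb).

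The wider peaks were spread in a partly similar way. On chromosome 15 there were 50 of them, 2.81 times the density of the other chromosomes. Over 20 chromosomes the densities of narrow and wider peaks had a Pearson r of 0.810 and a Spearman coefficient of 0.580, a description of chromosomes that share the same libraries. Both coefficients include chromosome 15, the densest in both classes, and neither was computed without it. The narrow share of all peaks ran from 23.8% on chromosome 16 to 57.1% on chromosome 13 and was 40.5% on chromosome 15.

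**Figure D2:**
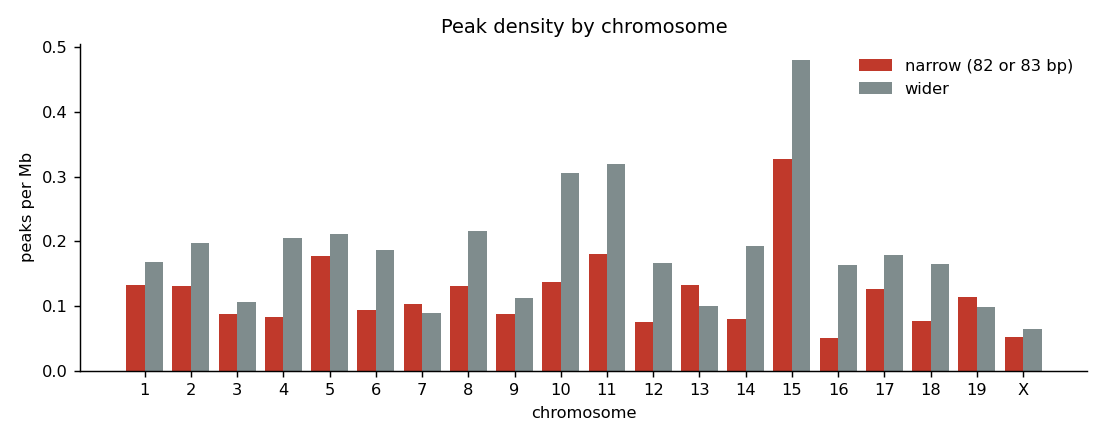
Peaks per Mb on each chromosome for narrow (red) and wider (grey) peaks, with the end of the last RefSeq gene taken as the chromosome length. Both bars are tallest on chromosome 15, at 0.327 narrow and 0.481 wider peaks per Mb.

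Narrow peaks mostly stood alone. The distance to the nearest other narrow peak had a median of 2.24 Mb over 310 peaks (the mitochondrial peak has none on its chromosome), and 89 had another within 1 Mb, 14 within 100 kb and 4 within 10 kb. Consecutive narrow peaks were separated by a median of 4.46 Mb, and the widest gap, 54.2 Mb, was on chromosome 4. The nearest wider peak lay at a median of 1.67 Mb, with 29 narrow peaks (9.32%) within 100 kb of one and 8 within 1 kb. Counting neighbours of any width, 12.9% of narrow and 16.6% of wider peaks had one within 100 kb.

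The 4 narrow peaks with another within 10 kb formed 2 pairs. On chromosome 15 the peaks chr15:45199196-45199278 and chr15:45199447-45199528, outside any RefSeq gene, began 251 bp apart and had scores of 3707.67 and 1165.27. On chromosome 14 the peaks chr14:19416171-19416253 and chr14:19418421-19418502 began 2250 bp apart, had scores of only 57.41 and 64.74, and enclosed 4 wider peaks with scores of 56.87 to 95.05.

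The score in the list is the authors' own value for each peak, with no stated scale. It serves here only to rank peaks and to describe ties, multiples and ratios of scores. It ran from 49.18 to 6383.9 among narrow peaks, with a median of 2913.17 and quartiles of 1942.11 and 3830.34. Wider peaks spanned 50.01 to 6383.9 with a median of 2843.25 and quartiles of 1835.3 and 4255.93. Peaks of 82 bp had a median of 2913.17 and those of 83 bp of 2979.15, while the 179 wider peaks under 110 bp, the next in width, had a median of 2553.56. The ranges coincide at the top, where 3 narrow and 10 wider peaks share the highest score.

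**Figure D3:**
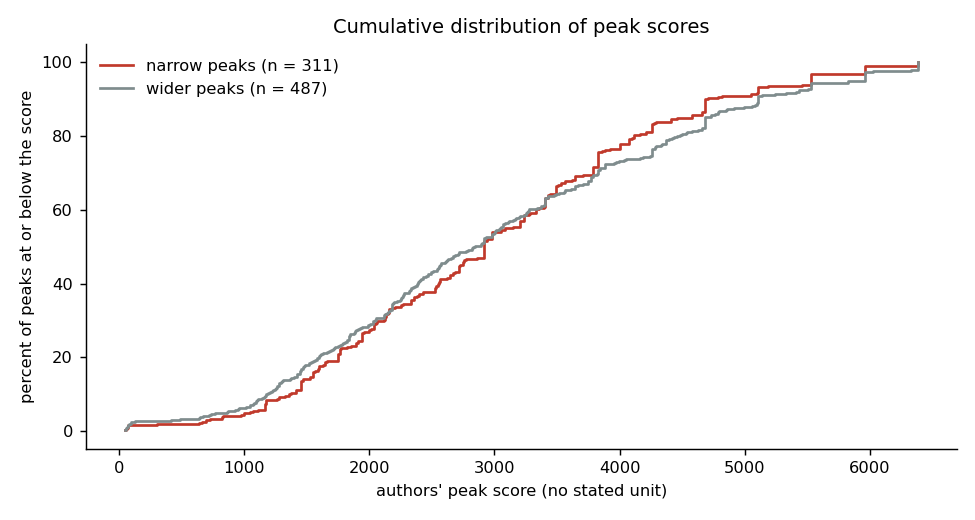
Cumulative percent of the 311 narrow (red) and 487 wider (grey) peaks by the authors' score, which has no stated unit. The curves cross near their medians, 2913.17 and 2843.25, and the narrow curve climbs in taller steps, each step being a score that several peaks share.

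Ties were frequent among narrow scores. The 311 peaks had 137 distinct scores, and 230 peaks (74.0%) shared their score with another narrow peak. Among the 487 wider peaks there were 338 distinct scores and 212 tied peaks (43.5%). The most frequent score, 2913.17, occurred in 14 narrow peaks on 9 chromosomes, and in 7 wider peaks. The score 4681.53 occurred in 11 narrow and 14 wider peaks, 5532.71 in 9 and 8, 3404.75 in 8 and 9 and 3830.34 in 8 and 6. In all 168 narrow peaks (54.0%) had a score that a wider peak also had.

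Many tied scores were whole multiples of 2 numbers, both picked after the scores were seen. The first was 425.59, the highest score divided by 15. The 3 narrow and 10 wider peaks at that highest score are therefore multiples by construction. Multiples 5 to 15 of 425.59, within 0.02, accounted for 68 narrow peaks (21.9%) and 81 wider peaks (16.6%). The second was 97.11, the most frequent narrow score divided by 30, to which 97 narrow (31.2%) and 48 wider peaks (9.86%) belonged. The frequent scores 1456.58, 1942.11, 3495.8 and 3787.12, each held by 7 narrow peaks, are 0.500, 0.667, 1.20 and 1.30 times 2913.17. Together 165 narrow peaks (53.1%) lay on either ladder, against 129 wider peaks (26.5%). The second number was taken from the narrow scores, and the 14 peaks at 2913.17 lie on its ladder by construction. That choice favours the narrow class, so these shares do not serve to compare the 2 classes.

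The first ladder was missing from chromosome 15. None of its 34 narrow and none of its 50 wider peaks had a multiple of 425.59, whereas off that chromosome 68 of 277 narrow (24.5%) and 81 of 437 wider peaks (18.5%) did. On chromosome 7 the count was 9 of 15 narrow peaks, on chromosome 12 it was 6 of 9, and on chromosomes 6 (14 narrow peaks) and 19 (7) it was also 0. Chromosome 11 had 0 of 39 wider peaks at a multiple beside 3 of 22 narrow, and chromosome 10 had 1 of 40 and 1 of 18. Low counts were thus not particular to chromosome 15. The second ladder was present on chromosome 15, with 9 narrow peaks and 4 wider. Narrow scores there ran from 305.13 to 4821.79 with a median of 1917.835, against a median of 2979.15 for narrow peaks elsewhere, and for wider peaks the medians were 2223.765 and 2962.69.

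**Figure D4:**
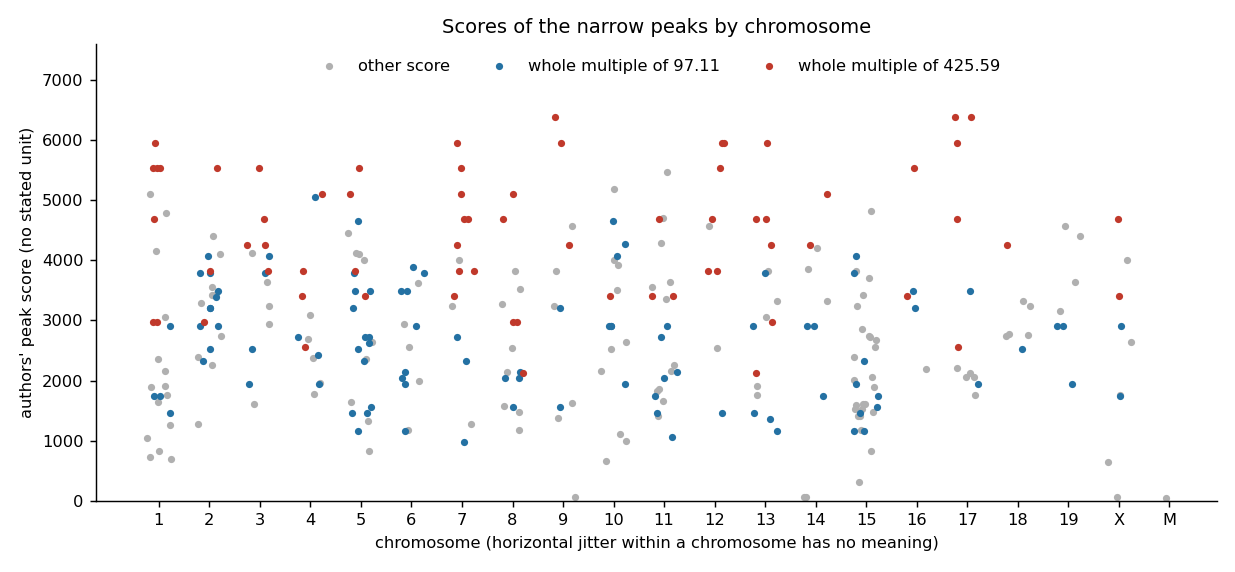
The authors' score of each narrow peak by chromosome, with whole multiples of 425.59 in red, of 97.11 in blue and other scores in grey. Chromosome 15 has 34 points and none in red, chromosomes 6 and 19 also have none in red, and 5 points lie near 0 on chromosomes 9, 14, X and M.

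The 5 highest distinct narrow scores were held by 21 peaks. The highest, 6383.9, belonged to chr9:98965546-98965628, outside any gene, to chr17:50530096-50530178 in Plcl2, a catalytically inactive relative of phospholipase C, and to chr17:64109621-64109703 in Fer, a non-receptor tyrosine kinase. In order of position the first 6 of the 21 peaks were chr1:38494071-38494153 in Aff3 and chr1:67518021-67518102 outside any gene (5532.71 each), chr1:91271647-91271728 in Ube2f (5958.31), chr1:154587546-154587628 in Cacna1e, chr2:179643947-179644028 in Cdh4 and chr3:116157296-116157378 in Gm26544 (5532.71 each). Of the 21 only chr11:72142946-72143027 (5462.19) and chr10:42839871-42839952 (5187.83) were not at a multiple of 425.59. That step was taken from the score of 6383.9, so the peaks with this score are multiples by construction.

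At the other end 5 narrow peaks scored under 100, far below the next, at 305.13 (chr15:75086896-75086978). Besides the chromosome 14 pair these were chrM:496-578 (49.18), in the mitochondrial ribosomal RNA gene mt-Rnr1, chrX:143483021-143483102 (70.79) and chr9:3000072-3000153 (70.93). Among wider peaks 12 scored under 100, 4 of them also on the mitochondrial genome and 4 between the chromosome 14 pair. Leaving out the 6 narrow peaks under 600, a limit chosen after the scores were seen, left the median score at 2913.17.

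The narrow peaks were placed against genes much as the wider ones were. Inside the span of a RefSeq gene lay 167 (53.7%; Wilson 95% interval 48.1 to 59.2, for counting error only), against 54.6% of wider peaks and 47.2% of the length of the chromosomes. For protein-coding genes alone the shares were 47.3%, 44.6% and 39.1%, and for lncRNA genes 7.07%, 11.5% and 8.39%. Exons and introns were not assigned here.

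Few narrow peaks lay at the start sites held in the RefSeq tables used, which lacked those of some genes. For the Npm1 peak the nearest one held was that of Fgf18 (15737.5 bp), farther than either end of Npm1. For the Kdelr2 peak it was that of Gm38736 (43545.5 bp), farther than either end of Kdelr2. Counts and distances therefore cover only the start sites held. The tables held no start site or microRNA hairpin on chromosome 18 and no start site on the mitochondrial genome, where 8 narrow peaks lay. Without these, 5 of 303 narrow peaks (1.65%) lay within 1 kb of one, against 2.14% of 468 wider peaks and 2.18% of the chromosomes' length. Within 10 kb the shares were 20.8%, 21.4% and 18.1%. The median distance to a start site was 37.1 kb for narrow and 31.8 kb for wider peaks. Besides the Gm51582 peak the 5 were chr7:25681671-25681752, 553.5 bp from that of B9d2, a protein of the cilium, chr11:3985722-3985803 (Gm46265, 597.5 bp), chr13:53935821-53935903 (Gm34557, 579 bp) and chr15:13155446-13155528 (Gm46513, 332 bp, inside Cdh6).

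Along the transcribed span of protein-coding genes, 34, 30, 30 and 23 of 118 peak-gene pairs with a known strand fell in the 4 successive equal parts from the start, and 1 had its centre outside the span. For wider peaks these parts held 41, 39, 40 and 38 of 159.

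The genes under narrow peaks were long. They numbered 175, of which 148 were protein coding and 23 lncRNA. The protein-coding ones had a median span of 125.4 kb, and 84 (56.8%) spanned at least 100 kb, a limit set after the genes were seen. Under wider peaks the median was 113.1 kb (53.5% at least 100 kb), and over all 21900 protein-coding genes 17.1 kb (11.1%). A long gene offers more bases for a peak to fall in.

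Of the 3 genes with 2 narrow peaks each, 2 were cadherin genes on chromosome 15, where narrow peaks were densest. The part of density and gene length in this was not tested. Cdh18, a cadherin of 928.6 kb on chromosome 15, held peaks at chr15:23057472-23057553 (3427.26) and chr15:23315246-23315328 (3824.99). Cdh6, a cadherin of 147.7 kb on the same chromosome, held chr15:13042771-13042852 (3787.12) and chr15:13155446-13155528 (3236.53). Gse1, a coiled-coil protein gene of 352.9 kb, held chr8:120427921-120428002 (1553.69) and chr8:120456096-120456178 (1569.23).

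A narrow peak lay over few genes of any kind, 148 of all 21900 protein-coding genes (0.676%) and 84 of the 2429 that span at least 100 kb (3.46%), so short lists could hold none. None of 55 sarcomere genes, 30 of excitation-contraction coupling, 21 of the dystrophin complex, 20 myogenic transcription factors, 31 of the Igf2-H19 region and imprinted network or 37 of matrix and fibroblasts had one in its span. Wider peaks overlapped 1, 0, 1, 0, 1 and 2 members of these lists. Narrow peaks did overlap 9 of 97 long genes of neuronal adhesion, synapse and ion channels, namely Cntn4, Csmd1, Ctnna3, Slit3, Ptprn2, Gpc5, Cdh18, Rbfox1 and Prkg1, where wider peaks overlapped 17. Some of these span far more than 100 kb, such as Cdh18 (928.6 kb) and Rbfox1 (1528 kb). The part of length in this count was not tested. In the fusion and adhesion list narrow peaks overlapped Cdh4 and Cdh13 of 24 members, and in the list of chromatin and RNA regulators Hdac9 and Rbfox1 of 38.

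RNA levels of these genes were read from the deposited FPKM table. Charme itself is not analysed here, so the groups rest on their labels. All 8 myotube markers were present, at a summed 9207 to 16130 FPKM per library. Of the other markers sought, 2 of 4 for fibroblasts (2.64 to 6.10 FPKM), 1 of 5 for macrophages (0.374 to 3.54), 2 of 3 for smooth muscle (29.6 to 54.6), 1 of 4 for neural cells (0.552 to 1.36) and none of 3 endothelial and 3 adipocyte markers were in the table. Median FPKM was 11.9 to 13.3, and Rn45s, the ribosomal RNA precursor, stood out in GAP-scr A (3387 FPKM) and GAP-2 A (4090), while the remaining 4 libraries had 93.2 to 176. Depth is unknown from FPKM, and as nothing says that the 2 replicates of a group were separate cultures, p-values reflect only how these libraries vary, which could be technical.

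Of the 175 genes 86, all protein coding, were in the expression table, and 84 passed the filter for testing, a mean of at least 1 FPKM. Their median of mean FPKM was 9.95, against 13.2 for all 10993 tested genes, and they ranged from 1.27 to 674 FPKM. Among protein-coding genes under a narrow peak 58.1% were in the table, against 49.8% of all. Changes below are differences of log2(FPKM + 1), a scale that understates changes of low genes, with adjusted p-values from limma over all tested genes.

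Over both gapmer arms against GAP-scr, 32 of the 84 genes (38.1%) passed an adjusted p of 0.05, 14 higher and 18 lower. The background was 34.1% of all tested genes, 24.5% higher and 9.57% lower. The overall share of calls was near the background, the higher share (16.7%) lay below it and the lower share (21.4%) above. Under wider peaks 43 of 111 passed, 23 higher and 20 lower. Scaling every library to one median turned the narrow split into 7 higher (8.33%) and 23 lower (27.4%), while all genes went to 14.3% higher and 14.2% lower. With quantile normalization the split was 5 and 23, with 14.3% and 15.4% of all genes. The split also moved the other way. It was 19 higher and 14 lower without GAP-scr replicate A, with 25.9% and 10.01% of all genes, and 15 and 15 without both libraries highest in Rn45s, with 21.7% and 7.99%. Taking genes by a start site within 50 kb of a narrow peak gave 34 higher and 22 lower of 142. That higher share of 23.9% was near the background of 24.5%, while the lower share of 15.5% stayed above the 9.57%.

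The median change was 0.03 for genes under narrow peaks, 0.03 under wider ones and 0.10 for all genes. Length moved with this difference: among genes of at least 100 kb the median was 0.02 for all 1327, of which 252 were higher and 226 (17.0%) lower. Of the 44 such genes under narrow peaks 6 were higher and 14 (31.8%) lower. The part of length in the split was not tested beyond these counts. In bulk RNA, fewer cells of a type and less RNA per cell cannot be told apart.

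The 2 arms share their control libraries, so their counts are given side by side. With GAP-2 17 of 84 passed, 9 higher and 8 lower, against a background of 14.6% (10.4% higher, 4.18% lower). With GAP-2/3 34 passed, 14 higher and 20 lower, against 39.3% (28% higher, 11.3% lower). Scaling to one median gave 6 higher and 12 lower for GAP-2 (7.14% and 14.3%, with 6.24% and 5.84% of all genes). For GAP-2/3 it gave 6 and 22 (7.14% and 26.2%, with 17.2% and 16.5%). Quantile normalization gave 6 and 13 for GAP-2 (7.14% and 15.5%, with 6.29% and 6.25%). For GAP-2/3 it gave 6 and 26 (7.14% and 31.0%, with 16.6% and 17.8%). With start sites within 50 kb the splits, of 142 genes, were 20 and 8 for GAP-2 (14.1% and 5.63%, with 10.4% and 4.18%). For GAP-2/3 they were 34 and 23 (23.9% and 16.2%, with 28% and 11.3%). Leaving out GAP-2 replicate A or B left 9 or 6 of 84 calls for GAP-2 (10.7% and 7.14%), while the share of all genes fell to 5.39% and 4.58%. Leaving out GAP-2/3 replicate A left 14 for GAP-2/3 (16.7%, with 14.0% of all genes). In a fit chosen after seeing the data, which left out GAP-scr A and GAP-2 A for their Rn45s, 11 passed for GAP-2 (13.1%, with 13.7% of all genes) and 30 for the mean of both arms (35.7%, with 29.6%).

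The 8 highest and 8 lowest called genes were picked by their change in these same libraries. Separation of their groups therefore adds no support to that change. The gene that rose most was Cobll1, a relative of the actin-binding protein cordon-bleu, with an 83-bp peak at chr2:65147896-65147978 (score 3427.26). It stood at 1.63 and 1.86 FPKM in GAP-scr, 3.92 and 4.17 in GAP-2 and 7.18 and 8.94 in GAP-2/3. The 3 groups did not overlap and GAP-2/3 was highest. The log2 change over both arms was 1.30 ± 0.11 (SE; adjusted p = 2.04e-05, limma).

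Irs1, the insulin receptor substrate that links the receptor to PI3-kinase, followed the same order. Its peak was chr1:82273921-82274002 (82 bp, 1747.9), and its levels were 15.4 and 13.1 FPKM in GAP-scr, 19.9 and 19.3 in GAP-2 and 27.1 and 30.2 in GAP-2/3, a change of 0.70 ± 0.10 (adjusted p = 0.000764, limma). Npm1, the abundant nucleolar protein nucleophosmin and the most highly expressed gene under a narrow peak, had 534 and 456 FPKM in GAP-scr, 768 and 833 in GAP-2 and 760 and 694 in GAP-2/3. Every gapmer library of Npm1 lay above both controls, by 0.63 ± 0.10 (adjusted p = 0.0013, limma). Its peak, chr11:33163097-33163178, lay near an end of its 11.64-kb span.

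A further 5 named genes rose, at lower levels than Npm1. Fnip1, a partner of folliculin, went from 11.0 and 8.36 FPKM to 16.8, 16.5, 14.3 and 15.05 (0.65 ± 0.11), and Mras, a Ras-family GTPase, from 2.90 and 3.43 to 5.86, 5.69, 4.85 and 5.45 (0.63 ± 0.11). Plcl2, under one of the 3 highest-scoring narrow peaks, rose from 1.84 and 1.35 FPKM to 2.70, 3.23, 2.27 and 2.30 (0.48 ± 0.12, adjusted p = 0.0103, limma). Tcea3, a transcription elongation factor (0.44 ± 0.13), and Gli3, a transcription factor of Hedgehog signalling (0.38 ± 0.11), also rose. The calls of Plcl2, Tcea3 and Gli3 were lost under quantile normalization and without GAP-scr replicate B, and those of Tcea3 and Gli3 also with the libraries scaled to one median and without GAP-2 replicate A or GAP-2/3 replicate B. That of Tcea3 was also lost without both libraries highest in Rn45s (0.39).

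The lowest was Rptor, which encodes raptor, the subunit that brings substrates to the growth-regulating kinase complex mTORC1. Its 83-bp peak, chr11:119654996-119655078 (3355.48), lay in a span of 296.7 kb. Rptor stood at 36.0 and 32.0 FPKM in GAP-scr, 24.0 and 20.7 in GAP-2 and 15.7 and 17.0 in GAP-2/3. The groups did not overlap, and the fall over both arms was -0.80 ± 0.10 (adjusted p = 0.000319, limma).

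Trio, a guanine nucleotide exchange factor, had its peak at chr15:27970971-27971053 (1176.92) and levels of 40.0 and 36.0 FPKM in GAP-scr, 25.7 and 26.1 in GAP-2 and 18.7 and 22.5 in GAP-2/3 (-0.70 ± 0.10, adjusted p = 0.000791, limma). Maml3, a coactivator of Notch signalling, had 3.89 and 4.02 FPKM in GAP-scr, 1.91 and 1.91 in GAP-2 and 2.35 and 2.17 in GAP-2/3 (-0.69 ± 0.10). Both arms lay below the controls in these genes, but for Maml3 the GAP-2 libraries were the lower ones. Trappc9, of a vesicle-tethering complex, went from 18.2 and 17.2 FPKM to 11.0, 10.7, 10.04 and 12.4 (-0.64 ± 0.11).

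Slc7a1, a transporter of cationic amino acids, had 23.3 and 23.8 FPKM in GAP-scr, 17.4 and 20.7 in GAP-2 and 11.3 and 14.1 in GAP-2/3 (-0.57 ± 0.11, adjusted p = 0.0038, limma). Rbfox1, a splicing regulator of muscle and brain and the longest of these genes at 1528 kb, had 7.66 and 6.27, then 5.56 and 4.75, then 3.60 and 3.79 FPKM (-0.56 ± 0.11). In both genes the GAP-2/3 libraries were lowest. Ttc28, with tetratricopeptide repeats, fell by 0.63 ± 0.10 on the log2 scale. Gse1, which has 2 narrow peaks, measured 14.8 and 10.9 FPKM under GAP-scr, against 10.9, 8.37, 5.99 and 7.99 in the gapmer libraries (-0.58 ± 0.15, adjusted p = 0.0129, limma), so a control and a GAP-2 library were level. Its call was lost without GAP-scr replicate A (-0.38) and without GAP-2/3 replicate A (-0.49).

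**Figure D5:**
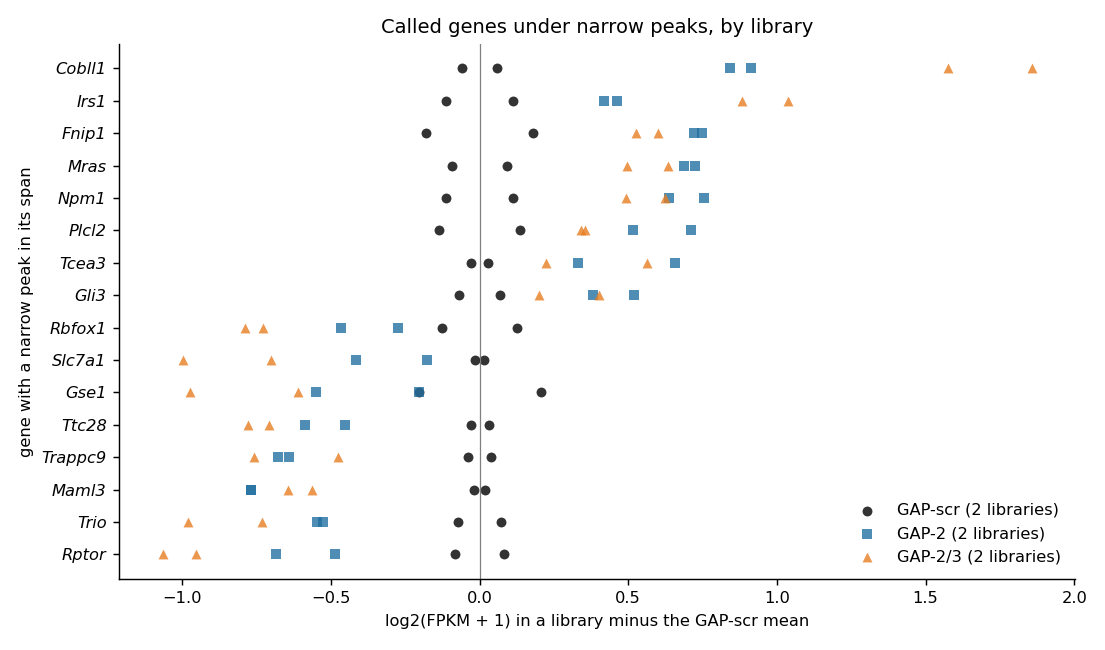
Level of each named gene with the 8 highest and 8 lowest changes in each library, as log2(FPKM + 1) minus the mean of the 2 GAP-scr libraries. Circles are GAP-scr, squares GAP-2 and triangles GAP-2/3, with 2 libraries each. Cobll1 reaches the highest values and Rptor the lowest, and a GAP-2 library of Gse1 falls on a GAP-scr library.

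The other 10 lower genes were Deptor, Adamtsl3, Itga5, Rbm20, Myo9b, Cdh13, Gpr107, Mvb12b, Inpp4b and Tbx15, with changes of -0.51 to -0.29. The other 6 higher genes were Tbc1d23, Mid2, Arhgef3, Chn2, Pphln1 and Pomp, with changes of 0.29 to 0.38. Itga5, the integrin subunit of the fibronectin receptor, was among the 6 most highly expressed genes under narrow peaks, at 78.3 and 77.0 FPKM in GAP-scr, 62.4 and 62.3 in GAP-2 and 43.9 and 53.6 in GAP-2/3 (-0.49 ± 0.10, adjusted p = 0.00423, limma). Cdh13, a cadherin without a transmembrane part, had 44.6 and 43.6, then 31.7 and 36.0, then 30.6 and 31.7 FPKM (-0.43 ± 0.09), and its call was lost without both libraries highest in Rn45s (-0.37). In Itga5 and Cdh13 all gapmer libraries lay below the controls.

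The other genes among the 6 with the highest FPKM had smaller changes over both arms. Pomp, a proteasome assembly factor with control levels of 193 and 161 FPKM and gapmer levels of 199 to 243, had a change of 0.29 ± 0.10 (adjusted p = 0.0454, limma). Its call was lost under 8 of the alternatives tried, both scalings and 5 of the 6 single-library removals among them. The changes over both arms were 0.04 ± 0.10 for Ank, a pyrophosphate transporter, 0.17 ± 0.09 for Kdelr2, a retrieval receptor of the endoplasmic reticulum, and -0.05 ± 0.09 for Ube2d2a, a ubiquitin-conjugating enzyme, with adjusted p-values of 0.783, 0.169 and 0.682 (limma). Cdh18, with 2 narrow peaks, had 7.61 to 9.38 FPKM in all libraries and a change of 0.04 ± 0.10 (adjusted p = 0.762, limma).

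The 6 lists without a member under a narrow peak are given beside all tested genes, of which 24.5% were higher and 9.57% lower, with a median of 0.10. All lists were chosen with earlier results of these data known, so their counts are a description and carry no test. Of 50 tested sarcomere genes 2 were higher and 35 lower (median -0.52), and of 27 genes of excitation-contraction coupling 0 and 19 (-0.41). The dystrophin complex had 1 higher and 6 lower of 18 (-0.15), and the myogenic transcription factors 2 and 5 of 14 (-0.21). The Igf2-H19 region and imprinted network had 1 and 6 of 17 (-0.20), and matrix and fibroblast genes 7 and 15 of 30 (-0.26). In the lists that narrow peaks touch, 3 of 19 tested fusion and adhesion genes were higher and 7 lower (median -0.17), as were 3 and 6 of 17 long neuronal genes (-0.22) and 6 and 9 of 31 chromatin and RNA regulators (-0.17). The tested members under a narrow peak were Cdh13 in the first, Cdh18 and Rbfox1 in the second and Rbfox1 in the third, and of these Cdh13 and Rbfox1 were lower.

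Between the arms, 11 of the 84 genes passed for GAP-2/3 against GAP-2, 4 higher and 7 lower, with a background of 10.1% (6.5% higher, 3.65% lower). Their share, 13.1%, was near that background, and the median difference was 0.03 against 0.05 for all genes. This count rested on few libraries, and the share of all genes moved with it. Without GAP-2/3 replicate A or B it was 1 each time, with 1.77% and 2.21% of all genes. Without GAP-2 replicate A or B it was 4 each time, with 3.19% and 4.85%, and without GAP-scr replicate A or B 19 each time, with 18.5% and 18.7%.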

How the data were processed

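Per the submitters' processing notes, which give no roles or versions, the tools included MACS and bedtools, Bowtie2, and TopHat2 with Cufflinks and Cuffdiff, and the build was mm9. The authors deposited 1 merged peak list with a score per peak, its scale not given in the sources used here, and FPKM values of 11228 genes in 6 libraries. The build was inferred as GRCm38, since the peak at chrX:170731996-170732078 lies past the mm9 length of X, which is general knowledge and was not read from a file. Coordinates are 1-based; gene spans, promoters and microRNAs are RefSeq's (GRCm38.p6), and a gene counts as under a peak from 1 shared bp.

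The members and lists were chosen with earlier results of these data known. FPKM values with a mean of at least 1 were taken as log2(FPKM + 1), 10993 genes, 99.6% of them matched to RefSeq (684 by an older symbol). All 6 libraries entered 1 limma 3.58.1 fit (R 4.3.3) with the intensity trend option and without a block, with Benjamini-Hochberg adjustment over all genes and a threshold of 0.05. The fit was tested on simulated data. With each gene's raw residual spread it recovered fewer of the changed genes than the pass limit set for that test. It passed only when the simulation was changed to the smaller, shrunken spread of the fitted model, so real changes may be missed. Called changes had the right sign with both spreads. Named genes are the 8 highest and 8 lowest called for the mean of both arms, genes with 2 narrow peaks, list members and the 6 highest in FPKM under a narrow peak. Alternatives concerned the pseudocount, filters, scaling, trend, block, threshold, single libraries and the definition of a gene under a peak. Peak values were summarised in Python 3.11.15.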

Additional observations from a re-analysis of the deposited data

Results flagged for a closer look

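For 5 named genes under a narrow peak the change with GAP-2/3 differed from that with GAP-2 by the test of the difference itself (limma, adjusted over 10993 genes, 2 libraries per arm). Cobll1 was higher with GAP-2/3 by 0.84 on the log2 scale (adjusted p = 0.0025), Ank by 0.60 (adjusted p = 0.00866) and Irs1 by 0.52 (adjusted p = 0.0198). For Slc7a1 the difference was -0.55 (adjusted p = 0.0233) and for Rptor -0.43 (adjusted p = 0.0446). Both GAP-2/3 libraries lay beyond both GAP-2 libraries in each of the 5 genes. The genes were picked by this difference in the same libraries, so the separation adds no support to it. Ank, with its peak at chr15:27561096-27561177 (score 1456.58), had 139 and 166 FPKM in GAP-scr, 130 and 123 in GAP-2 and 184 and 201 in GAP-2/3, so its GAP-2 libraries lay below the controls and its GAP-2/3 libraries above.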

How the results depend on the processing

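Widths of 82 or 83 bp alone gave 172 and 139 peaks, and a limit of 90 bp gave the same 311. The share in a gene span was 63.7% with spans extended by 5 kb and 47.3% for protein-coding genes, and neighbours within 100 kb or 5 Mb numbered 14 and 224. Taking genes by a start site within 50 kb gave 142 tested genes. The calls were 56 for the mean of both arms (34 higher, 22 lower), 28 for GAP-2, 57 for GAP-2/3 and 20 between the arms. These were 39.4%, 19.7%, 40.1% and 14.1%, with 34.1%, 14.6%, 39.3% and 10.1% of all genes. Peaks above the median score gave 16, 9, 15 and 4 calls, of 42 tested genes (38.1%, 21.4%, 35.7% and 9.52%, with the same shares of all genes). A mean of at least 5 FPKM gave 11 calls for GAP-2, of 63, as did leaving out both libraries highest in Rn45s, of 84. Between the arms a threshold of 0.1 gave 17 and a fit of only those libraries 19. Leaving out each library gave 23 to 33 calls for the mean, 6 to 22 for GAP-2, 14 to 35 for GAP-2/3 and 1 to 19 between the arms. Of the named genes' values in alternative fits, 744 were called there and in the reported fit, 559 in neither, 102 lost the call, 24 gained it and none reversed a called direction. The cause of these shifts was not tested.

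With the replicate letter as a block the counts were 31, 17, 36 and 13 (36.9%, 20.2%, 42.9% and 15.5%). The shares of all genes were then 35.9%, 17.8%, 40.6% and 13.4%, and calls among all genes for GAP-2 went from 1604 to 1955. The letters were not taken to pair the samples, since the deviations of same-lettered libraries were not all correlated above 0.1, at 0.36 (GAP-scr and GAP-2), -0.13 (GAP-scr and GAP-2/3) and -0.18 (GAP-2 and GAP-2/3). GAP-scr A and GAP-2 A also share the high Rn45s. The peak list has no libraries to leave out, and without depth neither the FPKM values nor the scores have a counting error.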
